A study of Mus musculus with 6 samples.

Results

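The dual-specificity MAP kinase phosphatases are enzymes that switch MAP kinases off, and their 10 genes were compared between calf muscle of control mice and of mice labelled as knockouts of the kinase TAK1. The genes were taken by name, as the rows of the array table whose platform gene symbol was Dusp1, Dusp2, Dusp4, Dusp5, Dusp6, Dusp7, Dusp8, Dusp9, Dusp10 or Dusp16. All 10 were measured, among 22180 genes in all, and where a symbol had several probe sets, the one with the highest average over the 6 arrays stood for the gene. Only Dusp6 had more than 1 probe set with its symbol alone, and its other probe set lay at a mean log2 level of 4.11, below the background described next. Values are log2 levels throughout, so a difference of 1 is a doubling, and levels of different genes are not compared because each probe set responds to its RNA differently. A log2 level of 5.85, which 95% of 1394 olfactory and vomeronasal receptor genes did not exceed, served as a guide to background. By this guide 9 of the 10 phosphatases were above background, and Dusp4 (mean 5.82) was not.

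The samples were gastrocnemius muscle of 3 control mice, which carried a floxed TAK1 gene (Map3k7) that was not deleted, and of 3 littermate mice with a skeletal muscle-specific knockout of TAK1, sampled 3 weeks after deletion. Each mouse gave 1 array. The driver of the deletion, the deleted exons, and the age and sex of the mice were not named in the labels. The targeted gene averaged 8.40 ± 0.07 on the control arrays against 8.22 ± 0.06 on the knockout arrays (log2, SD, n = 3). Every knockout value was the lower, but the difference was not called (adjusted p by limma 0.686), so the labels could not be checked with this probe set. The labels number the mice separately, and p-values measure the spread between these mice.

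MAP kinases are the last kinases of cascades in which a MAP kinase kinase kinase such as TAK1 activates a MAP kinase kinase, which activates ERK, JNK or p38 by adding phosphate to a threonine and a tyrosine of the same loop. The phosphatases of this family remove both phosphates, and many of their genes are themselves induced by MAP kinase activity, which makes them feedback inhibitors. They are grouped by place and preference: inducible nuclear enzymes (Dusp1, Dusp2, Dusp4, Dusp5), cytoplasmic enzymes that prefer ERK (Dusp6, Dusp7, Dusp9), and enzymes that prefer JNK and p38 (Dusp8, Dusp10, Dusp16).

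Of the 8 phosphatase genes with an upstream sequence in RefSeq (GRCm38.p6), 5 are shown here, each as the 250 bases before the annotated transcript start, 5′ to 3′ on the gene's strand. Dusp1, Dusp7, Dusp8 and Dusp16 are the genes whose knockout and control arrays did not overlap, and Dusp5 stands beside them as an inducible gene that did not lie lower. Dusp1 lies at chr17:26508473-26508722, minus strand. Dusp8 lies at chr7:142095285-142095534, minus strand. Dusp16 lies at chr6:134792629-134792878, minus strand. Dusp7 lies at chr9:106368382-106368631, plus strand. Dusp5 lies at chr19:53528895-53529144, plus strand. Capitals mark the cyclic AMP response element TGACGTCA, its core TGACG on either strand, and, in Dusp5, the CArG box that serum response factor binds.
Dusp1: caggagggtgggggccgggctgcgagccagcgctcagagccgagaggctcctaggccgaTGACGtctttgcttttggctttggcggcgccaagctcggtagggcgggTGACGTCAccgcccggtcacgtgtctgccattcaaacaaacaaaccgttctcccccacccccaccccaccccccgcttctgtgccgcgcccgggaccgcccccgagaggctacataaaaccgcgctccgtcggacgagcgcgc
Dusp8: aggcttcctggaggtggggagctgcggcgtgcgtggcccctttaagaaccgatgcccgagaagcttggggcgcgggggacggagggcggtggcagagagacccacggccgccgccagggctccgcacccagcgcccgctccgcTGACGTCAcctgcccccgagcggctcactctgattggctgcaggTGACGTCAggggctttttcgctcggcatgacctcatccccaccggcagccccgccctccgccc
Dusp16: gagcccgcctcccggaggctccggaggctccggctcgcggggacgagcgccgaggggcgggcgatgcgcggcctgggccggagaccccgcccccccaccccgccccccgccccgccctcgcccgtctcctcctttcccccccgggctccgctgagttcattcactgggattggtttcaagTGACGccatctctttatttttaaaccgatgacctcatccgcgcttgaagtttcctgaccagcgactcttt
Dusp7: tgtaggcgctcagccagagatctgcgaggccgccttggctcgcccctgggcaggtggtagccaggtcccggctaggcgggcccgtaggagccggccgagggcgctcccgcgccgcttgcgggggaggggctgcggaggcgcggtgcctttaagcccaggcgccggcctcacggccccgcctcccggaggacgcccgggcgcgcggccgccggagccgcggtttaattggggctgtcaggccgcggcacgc
Dusp5: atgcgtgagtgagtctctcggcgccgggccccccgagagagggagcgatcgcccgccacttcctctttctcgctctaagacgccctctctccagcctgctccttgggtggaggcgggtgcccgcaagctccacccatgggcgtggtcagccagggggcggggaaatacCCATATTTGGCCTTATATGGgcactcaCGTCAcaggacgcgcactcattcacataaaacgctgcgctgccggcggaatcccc

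The full element TGACGTCA was found once upstream of Dusp1, at positions −143 to −136 from the start, and at 2 places upstream of Dusp8, at −107 to −100 and −63 to −56. It was found upstream of 2 of the 8 phosphatase genes and in 1.56% of 32536 distinct upstream sequences of the same length. The core TGACG, which is also part of every full element, was found in 4 of the 8 (Dusp1, Dusp5, Dusp8 and Dusp16), against 17.9% of all sequences. Dusp5 held adjacent CArG boxes at −82 to −73 and −72 to −63, and 1.48% of all sequences held any. The Sp1 letters GGGCGG, not capitalised above, were found in 6 of 8 against 33.0% of all, and the letters TGANTCA (AP-1; 6.73% of all) and CCGGAAGT (ETS; 2.90% of all) in 0 of 8. Both strands were searched. These upstream sequences were rich in G and C, from 56.4% in Dusp6 to 77.2% in Dusp7, where the median over all sequences was 52.4%. A match describes letters only, and no binding was measured in these mice.

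**Figure D1:**
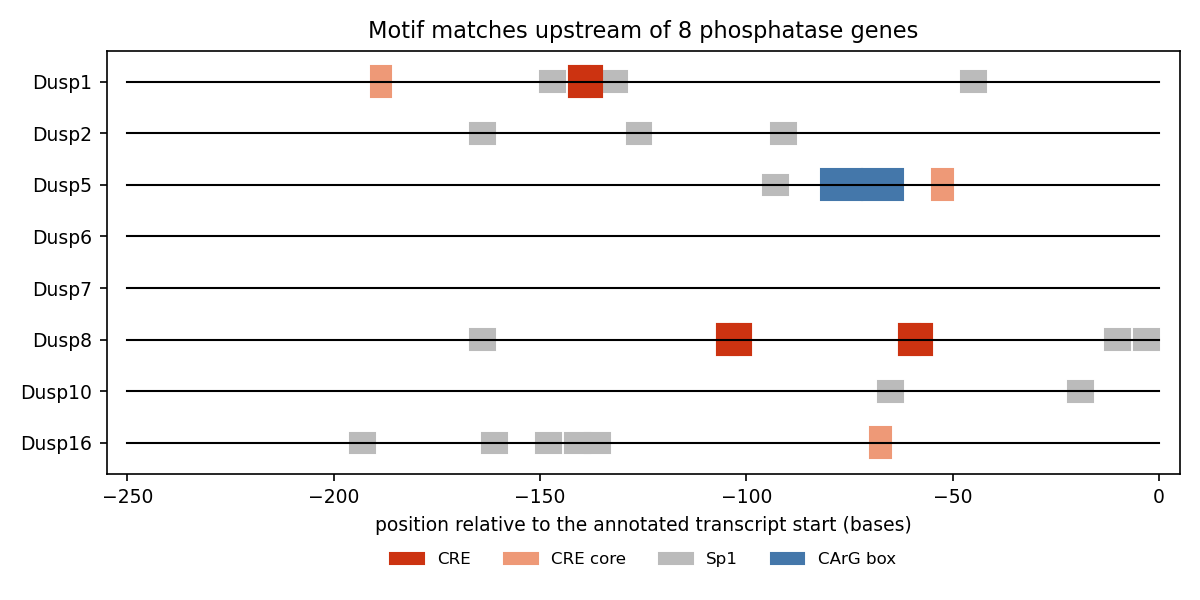
Motif matches in the 250 bases before the annotated transcript start of 8 phosphatase genes (horizontal axis: bases relative to the start; each line is 1 gene and each box 1 match). Red boxes, the full element TGACGTCA, occur once upstream of Dusp1 and at 2 places upstream of Dusp8, and Dusp6 and Dusp7 hold no match to any motif searched.

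The comparison of knockout with control muscle asked whether the transcripts of these inhibitors differ when the kinase far above their substrates is deleted. None of the 10 passed an adjusted p of 0.05 over all genes (limma), a threshold that 21 of 22180 genes (0.0947%) passed. In 7 of the 10 the knockout mean was lower, where 50.1% of all genes had a lower mean. In 4 of the 10 (Dusp1, Dusp7, Dusp8 and Dusp16) the knockout values lay below every control value, and in 0 above. Groups did not overlap in 13.4% of all genes, and lay apart with the knockout lower in 6.65% of all genes and in 8.32% of genes above background. An unadjusted p of 0.05 was passed by 3 of the 10 (Dusp1, Dusp8 and Dusp16), all with lower knockout values, against 8.04% of all genes in either direction and 4.12% with lower knockout values. The median log2 fold change of the 10 was −0.20 and that of all genes −0.0003. The threshold was not reached by any of the 10, so the differences that follow are given as measured values with their intervals.

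**Figure D2:**
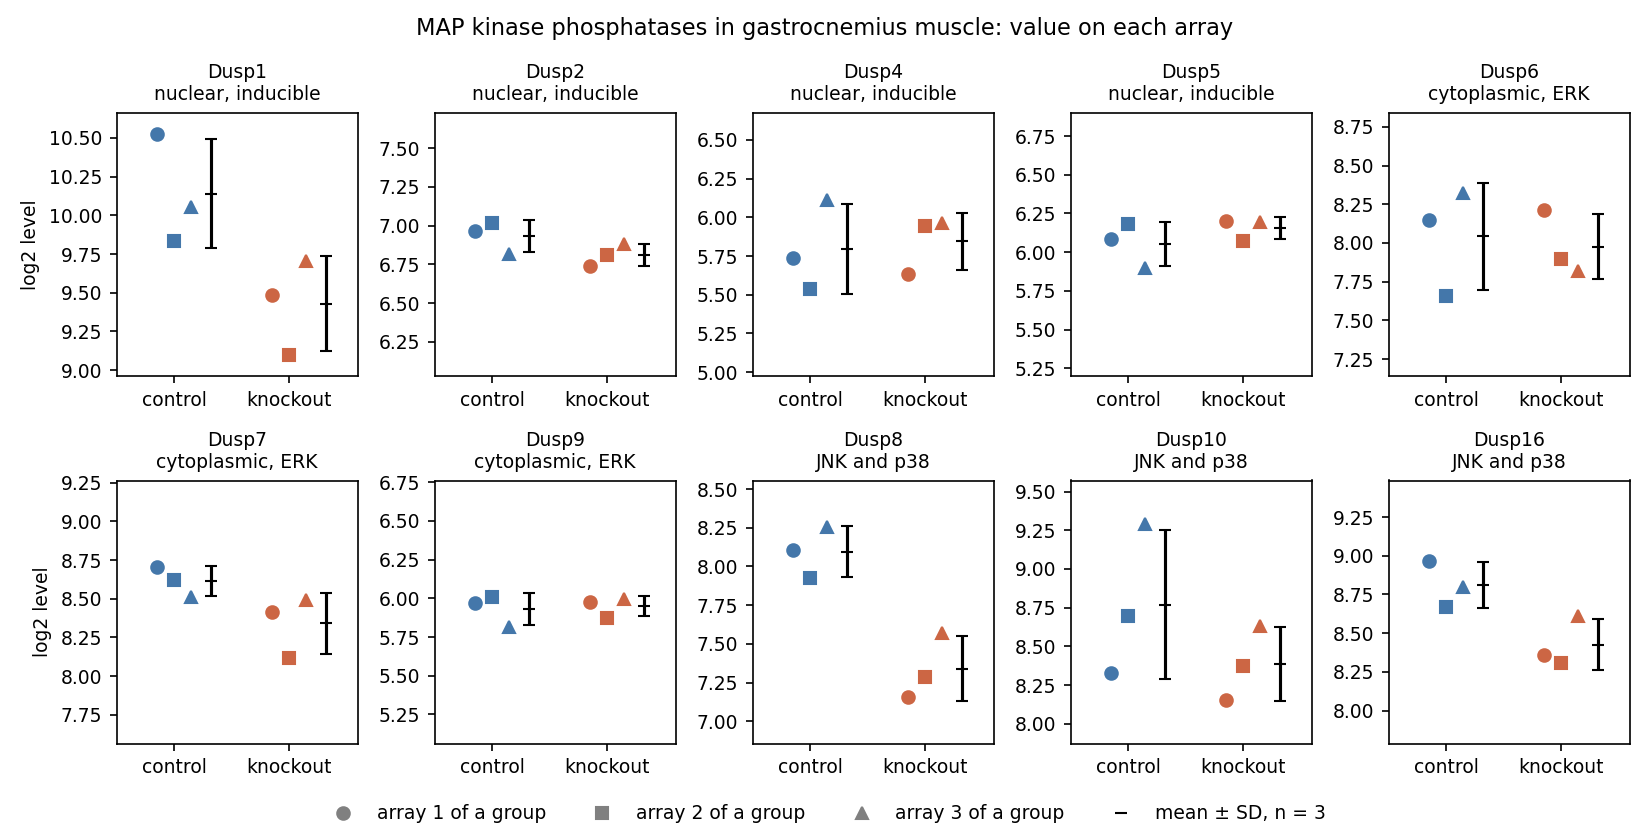
Log2 level of each phosphatase on each of the 6 arrays (blue control, orange knockout; 1 symbol per array), with the mean ± SD of 3 arrays beside the points. The vertical axes span the same range of log2 units but start at different levels. Knockout points lie below all control points for Dusp1, Dusp7, Dusp8 and Dusp16 and mingle with them for the other 6 genes.

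Dusp8, an enzyme that inactivates JNK and p38, had the largest difference of the 10 and the one with the smallest p. Controls 1 to 3 read 8.11, 7.93 and 8.25 on the log2 scale, and knockouts 1 to 3 read 7.16, 7.29 and 7.57. Every knockout array was lower than every control array, with 0.36 between the lowest control and the highest knockout, and knockout 3 lay nearest to the controls. The means were 8.10 ± 0.16 and 7.34 ± 0.21 (SD, n = 3), a 1.69-fold lower level (log2 fold change −0.76, SE 0.14, 95% confidence interval −1.07 to −0.45; limma, adjusted p = 0.142). By unadjusted p it stood at rank 67 of all genes, and by log2 fold change at rank 75 from the lowest. The adjusted p ran from 0.0535, among genes above the median level, to 0.525, with variances estimated gene by gene. Leaving out each array in turn gave log2 fold changes from −0.87 to −0.67.

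Dusp16, which binds JNK and shuttles between nucleus and cytoplasm, differed in the same direction by a smaller amount. The control arrays, in order, read 8.96, 8.67 and 8.80, and the knockout arrays 8.36, 8.31 and 8.61 (log2). The groups did not overlap, but only 0.06 separated control 2 from knockout 3. The means of 8.81 ± 0.15 and 8.43 ± 0.16 (SD, n = 3) differed 1.31-fold (log2 fold change −0.39, SE 0.12, 95% confidence interval −0.67 to −0.11; limma, adjusted p = 0.447). Dusp10, which acts on p38 and JNK, had the same mean difference with a wider spread. The control arrays, in order, read 8.33, 8.70 and 9.29, and the knockout arrays 8.16, 8.37 and 8.63 (log2). Control 1 lay below knockouts 2 and 3, so the groups overlapped, and control 3 stood 0.52 above the control mean. The log2 fold change was −0.38 (SE 0.23, 95% confidence interval −0.91 to 0.14; limma, adjusted p = 0.755), or −0.13 without control 3 and −0.61 without control 1. All 3 enzymes that prefer JNK and p38 therefore had lower knockout means, with a median log2 fold change of −0.39, and none was called.

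Dusp1, an immediate early gene whose enzyme acts mainly on p38 and JNK in the nucleus, had the largest difference among the inducible enzymes. The control arrays, in order, read 10.53, 9.84 and 10.06, and the knockout arrays 9.48, 9.10 and 9.70 (log2). The groups stood apart by 0.13, between control 2 and knockout 3, and both were widely spread. The means of 10.14 ± 0.35 and 9.43 ± 0.31 (SD, n = 3) differed 1.64-fold (log2 fold change −0.71, SE 0.20, 95% confidence interval −1.18 to −0.24; limma, adjusted p = 0.402). The log2 fold change was −0.52 without control 1 and −0.54 without knockout 2, the arrays with the highest and lowest level.

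The other 3 inducible enzymes overlapped between groups. Dusp2, known from activated immune cells, ran from 6.82 to 7.02 in controls and from 6.74 to 6.88 in knockouts, with a log2 fold change of −0.12 (95% confidence interval −0.35 to 0.11). Dusp5, which holds ERK in the nucleus, ran from 5.90 to 6.18 and from 6.07 to 6.20, with a log2 fold change of 0.10 (−0.14 to 0.35). Dusp4, which acts on ERK, JNK and p38, ran from 5.54 to 6.11 and from 5.63 to 5.96, around background, with a log2 fold change of 0.05 (−0.32 to 0.42) that was negative without control 2 (−0.077) or knockout 3 (−0.0063). The intervals of Dusp2 and Dusp5 leave room for a knockout level up to 1.27-fold lower and 1.27-fold higher, respectively. Differences up to that size were therefore not excluded with 3 arrays a group. Dusp4 and Dusp5 lay close to the background guide, where array values understate differences. Of the 4 inducible enzymes, 2 had lower and 2 higher knockout means.

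Among the cytoplasmic enzymes that prefer ERK, Dusp7 lay lower in every knockout array. The control arrays, in order, read 8.71, 8.62 and 8.51, and the knockout arrays 8.41, 8.12 and 8.49 (log2). Control 3 and knockout 3 were only 0.02 apart, and knockout 2 was the lowest array. The means of 8.61 ± 0.10 and 8.34 ± 0.20 (SD, n = 3) differed 1.21-fold (log2 fold change −0.27, SE 0.12, 95% confidence interval −0.55 to 0.01; limma, adjusted p = 0.629), and the log2 fold change was −0.16 without knockout 2. Dusp6, the best known feedback inhibitor of ERK, ran from 7.65 to 8.32 in controls and from 7.82 to 8.21 in knockouts. Its groups overlapped fully, with a log2 fold change of −0.07 (95% confidence interval −0.48 to 0.35) that was positive without control 3 (0.075) or knockout 3 (0.013). Dusp9, known from placenta, stayed between 5.81 and 6.01 on all arrays, close to background, with a log2 fold change of 0.02 (−0.21 to 0.24) that was negative without control 3 (−0.040) or knockout 3 (−0.0053).

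**Figure D3:**
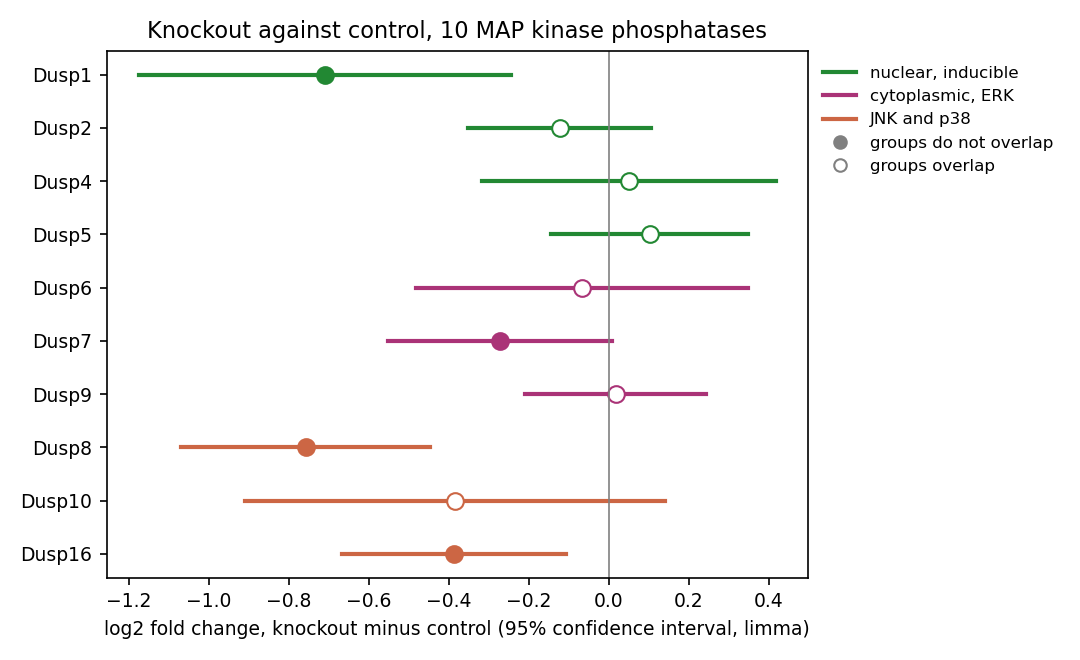
Log2 fold change of each phosphatase, knockout minus control, with its 95% confidence interval from limma (horizontal axis: log2 units; colours: the 3 functional groups; filled points: groups that do not overlap). The intervals of Dusp1, Dusp8 and Dusp16 lie wholly below 0 before adjustment for the number of genes, and that of Dusp7 reaches 0.01.

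The 4 genes whose groups did not overlap were also set against each other within the groups. Over all 6 arrays, Pearson's r between their levels ran from 0.71 to 0.97, but the genes were singled out for a lower level on the same knockout arrays, so high values follow from that choice. After each group's mean was subtracted, the 6 pairs ranged widely. Dusp1 had an r of 0.92 with Dusp16, 0.79 with Dusp7 and 0.45 with Dusp8. Dusp16 had 0.73 with Dusp8 and 0.66 with Dusp7, and Dusp7 with Dusp8 had 0.14. The dim genes Dusp5 and Dusp9 had an r of 0.91, or 0.98 after the group means were subtracted, over a narrow range of levels. These correlations are descriptions over 6 arrays that share their normalization. Knockout 2 was the lowest of the 6 arrays for 3 phosphatases and knockout 1 for another 3, whereas knockout 3 was the lowest for 0. Among the 4 genes with separate groups, knockout 3 was the knockout array nearest to the controls in each.

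**Figure D4:**
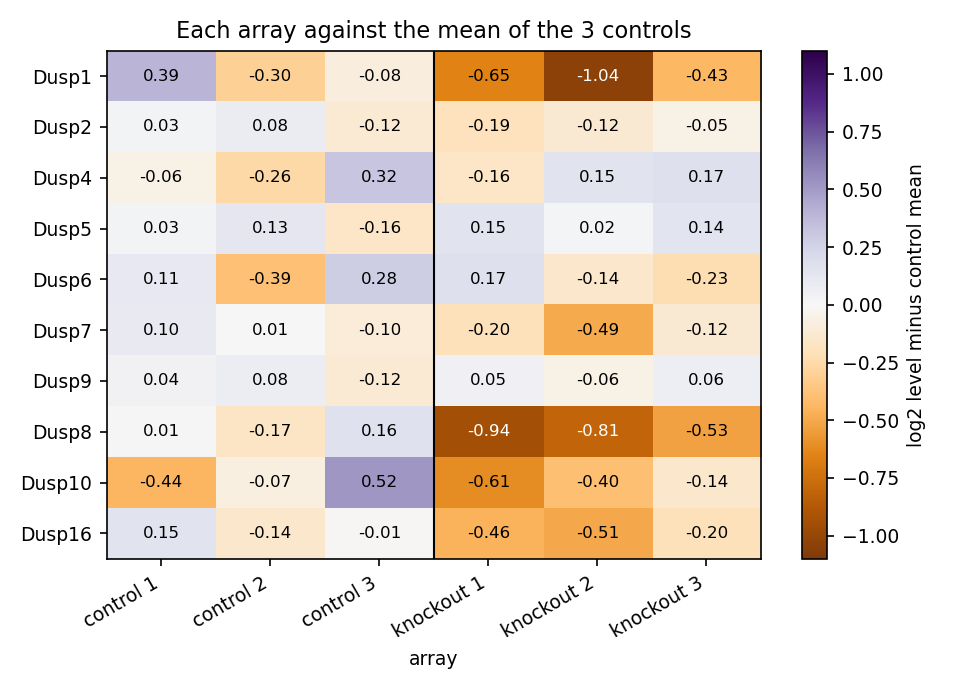
Log2 level of each phosphatase on each array minus the mean of the 3 control arrays (colour and printed value; rows are genes, columns arrays). Dusp1 and Dusp8 reach −1.04 in knockout 2 and −0.94 in knockout 1, and in Dusp1, Dusp7, Dusp8 and Dusp16 knockout 3 departs least from the controls.

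Other genes of the MAP kinase pathway were read from 9 lists with 133 genes, of which 124 had a probe set with that symbol alone. Adjusted over all genes, 0 of the 124 passed the test (limma), and 18 (14.5%) had an unadjusted p under 0.05, 8 higher and 10 lower, against 8.04% of all genes. The knockout mean was lower in 84, and the median log2 fold change was −0.08. Groups did not overlap in 28 of the 124 genes (22.6%), 12 with higher and 16 with lower knockout values, against 13.4% of all genes. The lists were chosen with earlier results known, so these shares are descriptions.

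Of 12 MAP kinases 9 had a lower mean, with a median log2 fold change of −0.10, and 0 were called. Groups did not overlap in 3 of the 12. The p38 alpha kinase Mapk14 averaged 9.06 ± 0.08 on control and 8.59 ± 0.12 on knockout arrays (log2, SD, n = 3), without overlap (log2 fold change −0.47, limma adjusted p = 0.233). The JNK genes Mapk8 and Mapk9 had log2 fold changes of −0.12 and −0.16, the p38 gamma kinase Mapk12 of muscle −0.09 and ERK5 (Mapk7) −0.08, all with overlapping groups. The other two with separate groups, named after their values were seen, had a mean over the 6 arrays below the background guide: the JNK gene Mapk10 was higher in every knockout array (5.99 ± 0.23 against 5.67 ± 0.10) and the p38 delta gene Mapk13 lower (5.62 ± 0.06 against 5.77 ± 0.07). Of 6 MAP kinase kinases, 4 had a lower mean, and groups did not overlap in 2, 1 with higher and 1 with lower knockout values. Map2k3, which activates p38, was higher in every knockout array, at 10.94 ± 0.06 against 10.52 ± 0.24 (log2 fold change 0.42, adjusted p = 0.432). Map2k6, its partner in p38 activation, had a log2 fold change of 0.27 and the JNK kinase Map2k4 −0.10, with overlapping groups. Of 22 kinases of the upper tier and TAB partners, 16 had a lower mean, and groups did not overlap in 5, all with lower knockout values. The adaptor Tab2, which links TAK1 to ubiquitin chains, was lower in every knockout array (log2 fold change −0.43, adjusted p = 0.338), while Tab1 had a log2 fold change of −0.02. The 8 scaffolds had a median log2 fold change of −0.004, and groups did not overlap in 2 of them, in opposite directions. The JNK scaffold Mapk8ip1 was lower (log2 fold change −0.25; limma, adjusted p = 0.571). Spag9, named after its values were seen, was higher (0.21; 0.603).

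Genes known as readouts of ERK activity were split between the directions. Of 12 ERK feedback inhibitors and ETS targets, 6 had higher and 6 lower knockout means, with a median log2 fold change of −0.01. Among the inhibitors, Spry1, Spry2, Spry4 and Spred1 had log2 fold changes of −0.13, 0.16, −0.04 and 0.07, and the ERK-induced factor Etv5 0.19, with overlapping groups in all 5. Groups did not overlap in 3 of the 12, named after their values were seen: the ETS factor Etv1 (log2 fold change −0.31; limma, adjusted p = 0.425) and the inhibitor Spred2 (−0.25; 0.629) were lower, and Phlda1 (0.16; 0.769) higher. Of 22 immediate early genes, 15 had a lower mean, with a median of −0.09. Groups did not overlap in 5 of the 22, 4 with higher and 1 with lower knockout values. They include Klf6 (log2 fold change 0.26; limma, adjusted p = 0.608) and the lower Fosl2 (−0.24; 0.611), both named after their values were seen. Fos, a rapidly induced transcription factor, read 8.97, 6.31 and 6.84 on the control arrays, then 7.16, 6.80 and 7.88 on the knockout arrays (log2). Egr1, another, read 7.90, 6.62 and 7.44, then 7.03, 6.22 and 7.12. Control 1 had the highest level of Fos, Egr1 and Dusp1, and also of Ier2 and Btg2. Other immediate early genes were highest elsewhere: Jun, Zfp36, Atf3 and Myc in knockout 3, and Junb in knockout 2. The part of such rapid induction in the Dusp1 difference was not tested. Of 17 kinases and transcription factors that MAP kinases activate, 12 had a lower mean (median log2 fold change −0.08). Groups did not overlap in 1 of the 17, named after its values were seen: serum response factor (Srf) was lower (log2 fold change −0.25; limma, adjusted p = 0.541). Among these 17, Mapkapk2, a p38-activated kinase, had a log2 fold change of 0.01 and Mapkapk3 −0.20. Among the immediate early genes, Jun had a log2 fold change of −0.27 and Zfp36 0.14. Groups overlapped in all 4. The stress factor Atf3 lay higher in every knockout array (8.56 ± 0.38 against 7.59 ± 0.15; log2 fold change 0.97, adjusted p = 0.155), as did Myc (log2 fold change 0.26, adjusted p = 0.640).

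Of 16 atypical dual-specificity phosphatases, 11 had lower and 5 higher means, with a median log2 fold change of −0.09, and 0 were called. Most of the 16 share the catalytic domain but lack the MAP kinase binding domain. Dusp13, expressed in testis and muscle, was lower in every knockout array (log2 fold change −0.32, adjusted p = 0.622). Dusp3, Dusp22, Dusp26 and Dusp27 had log2 fold changes of −0.21, −0.09, −0.09 and 0.02 with overlapping groups. Of 9 other phosphatases that act on MAP kinases, 7 had a lower mean (median −0.06), and Ppm1a, a serine and threonine phosphatase, had a log2 fold change of −0.04. Groups did not overlap in 3 of the 9, named after their values were seen. Ppm1l, which acts on kinases of the stress pathways, was lower in every knockout array, at 9.24 ± 0.19 against 9.65 ± 0.14 (SD, n = 3; log2 fold change −0.40; limma, adjusted p = 0.446). Ppp2ca, the catalytic subunit of protein phosphatase PP2A, was higher (log2 fold change 0.16; limma, adjusted p = 0.769), as was the tyrosine phosphatase Ptprr, which lay below background.

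**Figure D5:**
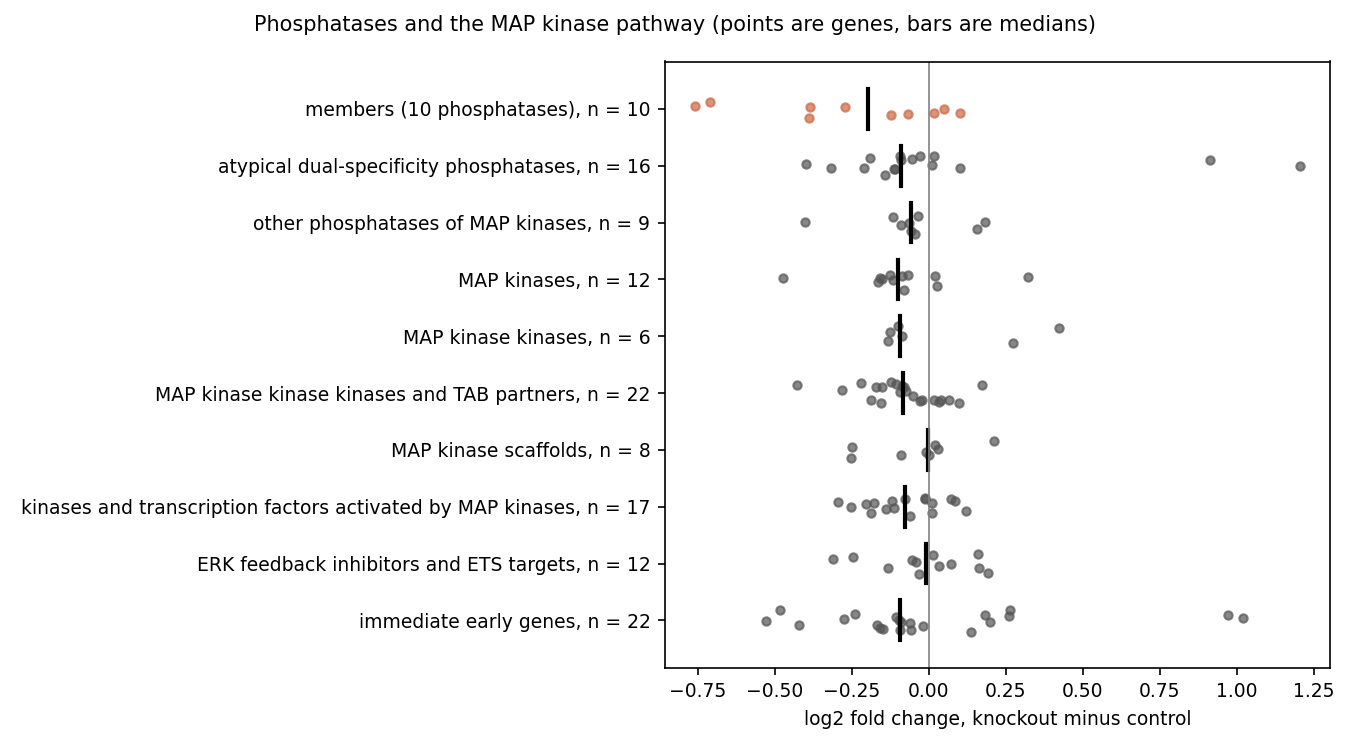
Log2 fold change, knockout minus control, of the 10 phosphatases (orange) and of 9 lists of other MAP kinase pathway genes (grey), with each list's median as a bar (horizontal axis: log2 units). The bar of the 10 phosphatases is at −0.20 and those of the other lists lie between −0.10 and −0.004.

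Median log2 levels of the 6 arrays ran from 5.78 to 5.84, and Pearson's r between arrays across genes, which are not independent replicates, was at least 0.985. All 10 skeletal muscle fibre markers were above background, and their summed level was 17.02 to 17.03 in controls and 16.96 to 17.01 in knockouts. A summed level is the log2 of the summed unlogged levels, so the brightest genes weigh most. Several fibre markers, such as Myh4 (control mean 14.15), lay near the arrays' highest values (14.31 to 14.34). Their sum may therefore not show a difference. Groups did not overlap in 2 of the 10, named after their values were seen: Mylpf (log2 fold change −0.46; limma, adjusted p = 0.221) and Acta1 (−0.05; 0.936) were lower. Tendon cell markers were lower in 10 of 10 genes (median log2 fold change −0.75, 0 called), with a summed level of 11.27 to 11.91 in controls and 10.38 to 11.44 in knockouts and the lowest level in knockout 3. Summed endothelial markers were at 11.51 to 11.84 and 11.64 to 11.69, macrophage markers at 10.38 to 10.66 and 10.40 to 10.75, and fibro-adipogenic markers at 13.05 to 13.42 and 12.60 to 13.53. Those of adipocytes were at 12.11 to 12.61 and 12.29 to 12.59, and those of smooth muscle and pericytes at 14.08 to 14.13 and 14.15 to 14.22. The smooth muscle and pericyte sum rests on the brightest of its genes, whose median level was 8.45. Of these genes 5 had higher and 5 lower knockout means (median log2 fold change −0.05). Schwann cell markers were at 9.41 to 9.50 and 9.35 to 9.60, and satellite cell markers at 10.54 to 10.69 and 10.38 to 10.54. Of 9 measured lymphocyte markers 0 were above background, and 1 of 10 neutrophil markers. No gene of any marker list was called. The part of tendon or other cells in the phosphatase differences was not tested, and in whole muscle fewer cells of a type and less RNA per cell cannot be told apart.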

How the data were processed

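Total RNA was extracted with Trizol and made into biotin-labelled cRNA for Affymetrix arrays, per the labels' protocols. The authors deposited log2 probe set levels, and the submitters' processing notes name RMA, oligo and limma. RMA equalises the arrays' distributions and compresses differences near background. Of 41345 probe sets 23521 had 1 gene symbol in GEO's platform annotation and gave 22180 genes. Groups were compared with limma 3.58.1 (R 4.3.3; lmFit, eBayes, group means, two-sided, Benjamini-Hochberg over all genes, threshold 0.05), which was also tested on simulated data. No filter was applied, and the background guide decided no call. The 10 phosphatases, pathway and marker lists, named genes (all 10, called list genes and fixed examples) and alternatives were chosen with earlier results of these data known. Scanner files were not analysed here, and 3 arrays a group limit the precision. Upstream sequences came from RefSeq, build GRCm38.p6. Figures used matplotlib 3.10.9 (Python 3.11.15).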

Additional observations from a re-analysis of the deposited data

How the results depend on the processing

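None of the 10 phosphatases was called under any of the 16 alternatives (limma; 2 to 4 of them had an unadjusted p under 0.05). In the alternatives that tested 22180 genes, 1408 to 1877 of those genes had an unadjusted p under 0.05. The count of phosphatases whose groups did not overlap was 4 with quantile normalization, median centring and the mean over probe sets. Without 1 array it was 4 to 5, but leaving out an array cannot make separate groups overlap, so this count could not fall. Smaller groups also separate more readily. The share over all genes was counted only with all 6 arrays on the deposited values, so these counts have no share to stand beside. The comparison by overlap was chosen after seeing the data. Dusp1, Dusp2, Dusp7, Dusp8, Dusp10 and Dusp16 kept a negative and Dusp5 a positive log2 fold change in every alternative that held them. Without 1 array the log2 fold changes ran from −0.077 to 0.21 for Dusp4, from −0.26 to 0.075 for Dusp6 and from −0.040 to 0.056 for Dusp9. Dusp4, Dusp5 and Dusp9 have no value among genes above the median level, nor Dusp4 among genes above the receptor-gene level. Over all genes, 21 were called, against 6 with every probe set tested, 53 among genes above the median level, 45 above the receptor-gene level, 36 with an intensity trend and robust prior, 0 with per-gene variance (1612 at unadjusted p under 0.05) and 2 to 11 without 1 array. Of the pathway genes 0 were called, and 0 to 1 without 1 array. With the replicate block 17 genes and 0 phosphatases were called. The deviations of same-numbered arrays from their group means correlated at 0.06, 0.31 and −0.14, and those of differently numbered arrays at −0.29 to 0.20. With 3 arrays a group, such values cannot settle a pairing. The labels do not say that the numbers pair the mice, so the mice were treated as unpaired.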

Other observations

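The named pathway genes leave out some that differed more than most phosphatases, and these were chosen after their values were seen. Dupd1, an atypical dual-specificity phosphatase of muscle, read 6.55, 6.85 and 6.88 on the control arrays, then 7.93, 7.76 and 7.32 on the knockout arrays (log2), without overlap (log2 fold change 0.91; limma, adjusted p = 0.146). Dusp18, another atypical member, read 7.54, 8.87 and 7.74, then 9.10, 9.41 and 9.24 (log2 fold change 1.20, adjusted p = 0.294). Control 2 was far above the other controls for Dusp18, and without it Dusp18 differed by 1.61 on the log2 scale (adjusted p = 0.0420), the only pathway gene called when 1 array was left out. Dusp23, a small atypical phosphatase, was lower in every knockout array, at 8.88 ± 0.11 against 9.28 ± 0.03 (SD, n = 3; log2 fold change −0.40, adjusted p = 0.282). The nuclear receptor Nr4a3, an immediate early gene, differed by 1.02 on the log2 scale, higher in every knockout array (limma, adjusted p = 0.425).

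The genes above background whose log2 levels followed each phosphatase most closely over the 6 arrays were taken by Pearson's r among 12601 genes, as a description with no test. For Dusp8 they were Tnks2, Taldo1 and Zfp24 (r of 0.993 to 0.996), for Dusp1 Tmem42, Usp15 and Lzic (0.996 to 0.999) and for Dusp16 9130401M01Rik, Rxylt1 and Mir16-1 (0.989 to 0.991). For Dusp7 they were Prima1, Mex3c and Sox7 (0.991 to 0.997), for Dusp10 Kbtbd13, Dera and Trp53cor1 (0.970 to 0.978) and for Dusp6 Mff, Dock11 and Fnta (0.988 to 0.996). For Dusp2 they were Ifitm10, Procr and Gm10638 (0.989 to 0.996), for Dusp5 Fcna, Miga2 and Gm8096 (0.977 to 0.9895) and for Dusp9 Crocc2, Asmt and Fam216b (0.977 to 0.982). An r above 0.99 was reached by 7 genes each for Dusp1 and Dusp8 (0.0556% of the genes) and by 3 for Dusp7 (0.0238%). It was reached by 2 each for Dusp2, Dusp6 and Dusp16 (0.0159%) and by 0 for Dusp5, Dusp9 and Dusp10. With 6 arrays such values arise readily among so many genes, and the counts were not tested against each other. Dusp4 was left out because it lay at background.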
